A study of Homo sapiens with 18 samples.

Results

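Transcript levels of APAF1 and 7 caspases (CASP1, CASP2, CASP4, CASP6, CASP8, CASP9 and CASP10) were followed in SJSA cells under 6 treatments. The genes were chosen by symbol, and all 8 had a row among the 23368 gene rows. SJSA is a human osteosarcoma line that carries amplifications of MDM2 and CDK4, and every group shares them. RNA was sequenced in 18 libraries, 3 biological replicates for each of 6 groups. The DMSO group received solvent. The Nutlin group received Nutlin, an antagonist that keeps MDM2 from binding p53, at 20 µM for 6 h. PD24 cells received PD0332991 (Palbociclib, an inhibitor of CDK4 and CDK6) at 10 µM during the initial 24 h of a schedule that lasted 30 h, and the drug was then removed. PD30 cells received it at 10 µM for all 30 h. N+PD24 and N+PD30 combined either schedule with Nutlin during the last 6 h. The results therefore rest on a single cell line. A supplementary scheme of the study, used for liposarcoma lines, also lists a lower Nutlin concentration beside the one in the sample labels.

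Caspases are proteases that are made as inactive precursors. In the intrinsic route to apoptosis, cytochrome c leaves the mitochondria and assembles APAF1 into the apoptosome, which activates CASP9. CASP8 and CASP10 are activated at death receptors, CASP2 at a platform built on PIDD, and these initiators pass the signal to executioners such as CASP6. CASP1 and CASP4 belong to the inflammatory branch, where they act in inflammasomes and cleave gasdermin D. In p53 biology the family is known as one of several outlets through which p53 can bring about cell death.

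The shallowest library, N+PD30 replicate 1, held 12704845 counts, the deepest 40231041, and the median was 29608936. Levels are given as CPM, in which each library's own total is scaled to 1000000 counts. The lowest count behind any member's value was 70 reads, for CASP10 in a PD24 library. The drug checks followed the labels. CDKN1A, which encodes p21, averaged 184 CPM in DMSO, 3984 CPM in Nutlin, 4648 CPM in N+PD24 and 2377 CPM in N+PD30. CCNA2, the cyclin of S phase and a readout of cycling cells, averaged 216 CPM in DMSO, 3.09 CPM in PD24 and 4.51 CPM in PD30. Of the mesenchymal and osteoblast markers, VIM, COL1A1, COL1A2, SPARC, RUNX2, ALPL and SPP1 were present in every library, whereas BGLAP reached at most 0.221 CPM. The leukocyte markers PTPRC and CD3E stayed at or below 0.492 CPM and the endothelial markers PECAM1 and CDH5 at or below 2.36 CPM. Of the epithelial markers, EPCAM and CDH1 stayed at or below 1.65 CPM, and KRT8 ranged from 9.47 to 36.9 CPM. In bulk RNA, fewer cells with a transcript and less of it per cell cannot be told apart.

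The promoters of 4 members are shown because their transcripts were called under both schedules of PD0332991, 3 lower (APAF1, CASP2, CASP6) and 1 higher (CASP4) than in DMSO. The RefSeq promoter table (GRCh38.p14) held 6 of the 8 members. CASP1 and CASP10 had no entry. The stretches before the main start site were found again by exact match on GRCh37, cut before the first exon base, and are printed on the gene's strand. Capitals mark the CCAAT box, read as CCAAT or, on the other strand, as ATTGG.
APAF1 (chr12:99038818-99039067, plus strand): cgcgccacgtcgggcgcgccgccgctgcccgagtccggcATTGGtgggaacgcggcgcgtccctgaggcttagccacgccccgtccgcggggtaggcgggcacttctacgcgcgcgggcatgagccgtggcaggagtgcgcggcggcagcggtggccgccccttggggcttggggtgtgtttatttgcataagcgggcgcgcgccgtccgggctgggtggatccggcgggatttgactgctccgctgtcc
CASP2 (chr7:142985194-142985307, plus strand): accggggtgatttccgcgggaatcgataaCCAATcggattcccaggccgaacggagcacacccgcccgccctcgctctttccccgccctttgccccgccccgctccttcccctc
CASP6 (chr4:110624740-110624851, minus strand): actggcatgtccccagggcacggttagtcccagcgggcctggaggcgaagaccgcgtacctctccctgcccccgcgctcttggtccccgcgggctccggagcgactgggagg
CASP4 (chr11:104839302-104839551, minus strand): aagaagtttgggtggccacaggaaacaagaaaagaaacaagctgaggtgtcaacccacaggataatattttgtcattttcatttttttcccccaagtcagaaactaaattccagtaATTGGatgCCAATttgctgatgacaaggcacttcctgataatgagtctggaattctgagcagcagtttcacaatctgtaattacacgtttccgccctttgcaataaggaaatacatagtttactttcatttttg

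The printed stretches of APAF1, CASP2 and CASP6 held 73.6%, 67.5% and 72.3% G and C, against 38.0% in that of CASP4. In the full 250 bases before the start site, the CCAAT box was found once in APAF1 and 2 times each in CASP2 and CASP4, where 1 match of CASP2 lies past the printed stretch, and no match was found in CASP6. Of 35116 promoters of 250 bases in the table, 32.0% held this box. The E2F letters TTTCCCGC, TTTCGCGC, TTTGCCGC and TTTGGCGC, searched on both strands, matched none of the windows of the 6 members, and 2.79% of all promoters held one. A p53 half-site was found upstream of further start sites of CASP8 and CASP9 (5.57% of all promoters), and in none of the 4 promoters printed. A full p53 site, taken as a pair of exact half-sites with a spacer of at most 13 bases, was found within 5000 bases of the start site of none of the 8 members, and of 1.28% of 19894 protein-coding genes. With so few genes meeting this pattern, finding none among 8 members cannot show that they lack p53 sites. Sites with a mismatch were not searched. These matches describe letters in the reference and no binding was measured.

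The genes lie apart except for 2 neighbourhoods, given here in GRCh37 coordinates from GENCODE. CASP10 (chr2:202047595-202094151) and CASP8 (chr2:202098166-202226559) follow each other on the plus strand of chromosome 2. CASP4 (chr11:104813593-104840093) and CASP1 (chr11:104896124-104905977) lie on the minus strand of chromosome 11, where they are part of a cluster of paralogs that can share reads. APAF1 (chr12:99039068-99129211, plus strand), CASP2 (chr7:142985308-143004789, plus strand), CASP6 (chr4:110609778-110624739, minus strand) and CASP9 (chr1:15817327-15853029, minus strand) are single. On the opposite strand APAF1 overlaps ANKS1B, at a median of 0.431 CPM, and CASP9 overlaps CELA2B, at a median of 0.106 CPM. CASP6 overlaps MCUB and CASP8 overlaps FLACC1, which had no row under these symbols. Reads were counted with a strand setting, but the kit is not stated to keep the strand, so the parts of such overlaps in the values were not tested.

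Per kilobase of exon, the members spanned a wide range in DMSO. CASP4 stood highest at 38.9 CPM per kb, followed by CASP2 at 14.7, CASP6 at 12.1, CASP8 at 6.49, APAF1 at 5.54, CASP1 at 4.31, CASP9 at 2.42 and CASP10 at 0.628. The highest level per kilobase therefore belonged to an inflammatory caspase, and the apoptosome pair APAF1 and CASP9 lay in the lower part of that order. It depends on the exon lengths, which were taken from GENCODE, whereas the authors mapped to UCSC hg19. In CPM without division by length, CASP2 stood highest in DMSO at 63.3, followed by CASP4 at 54.4 and APAF1 at 40.6.

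Nutlin alone changed 5 of the 8 genes, where changed means a Benjamini-Hochberg adjusted p under 0.05 over all genes tested. CASP10, APAF1 and CASP1 rose, and CASP2 and CASP6 fell. Over all 15766 genes tested, 54.6% changed, 26.6% upwards and 28% downwards, so a share of this size was common in that comparison. By CPM, the groups did not overlap in 6 of 8 members, against 61.8% of all genes. The median log2 fold change was -0.08 over the members and 0.03 over all genes.

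PD0332991 alone was compared with DMSO for either schedule. In PD24 against DMSO 5 of 8 changed (CASP4 and CASP8 higher, APAF1, CASP2 and CASP6 lower), against 38.3% of all genes (17.5% higher, 20.8% lower). In PD30 against DMSO 4 of 8 changed (CASP4 higher, the same 3 lower), against 48.3% of all genes (22.9% higher, 25.4% lower). The medians of the members were -0.30 and -0.23 on the log2 scale, and those of all genes 0.02 and 0.00. PD30 and PD24 differed in 3 of 8 members, all lower in PD30 (CASP2, CASP6, CASP8), against 25.2% of all genes in either direction and 12.9% in that one.

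With both drugs the comparison has 2 sides. Set against Nutlin alone, N+PD30 differed in 3 of 8 members (49% of all genes, 24.3% higher and 24.7% lower) and N+PD24 in 3 of 8 (33.9%). CASP4 was higher and CASP6 lower under both schedules. The third member was CASP10, lower in N+PD30, or APAF1, lower in N+PD24. Set against the same schedule without Nutlin, N+PD30 differed in 2 of 8 (14.5% of all genes) and N+PD24 in 3 of 8 (36.3%). APAF1 and CASP10 were higher under both schedules, and CASP2 was lower in N+PD24. N+PD30 and N+PD24 differed from each other in 3 of 8 (31.2%), with APAF1 higher and CASP8 and CASP10 lower in N+PD30. These comparisons share libraries with each other, and their values are set side by side only.

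The difference in the Nutlin response itself was tested as an interaction. With PD30 it passed the threshold for 2 of 8 members, APAF1 and CASP2, against 19.8% of 16113 genes. With PD24 it passed for 0 of 8 by limma, where 2 had an unadjusted p under 0.05, and for 0 of 8 by edgeR on reads recovered from the normalised columns. Only 0.698% of 16321 genes passed in that limma fit, and 116 of 16301 in the edgeR fit.

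APAF1, the scaffold of the apoptosome, was lower with PD0332991 and higher with Nutlin. It stood at 40.2, 37.4 and 44.2 CPM in DMSO and at 58.1, 43.9 and 49.6 CPM in Nutlin. It stood at 16.6, 15.9 and 17.6 CPM in PD24 and at 16.3, 15.1 and 17.0 CPM in PD30. All 6 libraries with PD0332991 alone thus lay far below the lowest DMSO library, whereas Nutlin and DMSO overlapped by 1 library. With both drugs it stood at 27.3, 27.2 and 31.2 CPM in N+PD24 and at 35.3, 40.4 and 49.4 CPM in N+PD30. N+PD24 lay between PD24 and DMSO without touching either, and N+PD30 covered the range of DMSO and reached into that of Nutlin.

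In log2 fold change, APAF1 rose with Nutlin by 0.44 ± 0.12 (SE, adjusted p = 0.0109, the quasi-likelihood test of edgeR, Benjamini-Hochberg adjusted). That call rested on a narrow margin: it was lost without DMSO replicate 2 (adjusted p = 0.0621) and with scaling by column totals (adjusted p = 0.0517). APAF1 fell by 1.26 ± 0.11 in PD24 (adjusted p = 3.55e-05) and by 1.35 ± 0.10 in PD30 (adjusted p = 5.37e-06), which is 2.39-fold and 2.54-fold lower. A difference between PD30 and PD24 was not detected (-0.09, 95% interval -0.35 to 0.18, adjusted p = 0.625). On top of PD0332991, Nutlin raised APAF1 by 0.91 ± 0.13 in N+PD24 against PD24 (limma, adjusted p = 0.00043) and by 1.46 ± 0.13 in N+PD30 against PD30 (edgeR, adjusted p = 0.000351). The latter is 2.75-fold. The response to Nutlin was larger in the presence of PD30 than without it by 1.07 ± 0.18 (interaction, edgeR, adjusted p = 0.00128). With PD24 the corresponding difference was 0.49 ± 0.16 (limma, adjusted p = 0.233). Against Nutlin alone, APAF1 was lower by 0.74 in N+PD24 (-0.74 ± 0.13, limma, adjusted p = 0.0018), and in N+PD30 the difference of -0.32 (95% interval -0.65 to 0.01) missed the threshold at an adjusted p of 0.0966. The latter passed only without N+PD30 replicate 3 (adjusted p = 0.0356). APAF1 was higher in N+PD30 than in N+PD24 by 0.42 ± 0.14 (limma, adjusted p = 0.0464). That call held only without N+PD30 replicate 1 and was lost without each of the other 5 libraries (adjusted p up to 0.152).

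CASP9, the initiator that the apoptosome activates, was the member with no call in any of the 11 comparisons. It stood at 10.97, 11.9 and 10.6 CPM in DMSO, at 8.65, 8.09 and 9.76 CPM in Nutlin, and at 8.86, 9.95 and 8.998 CPM in PD24. PD30 gave 10.5, 10.9 and 6.76 CPM, N+PD24 gave 7.62, 7.26 and 7.37 CPM, and N+PD30 gave 10.2, 9.71 and 7.26 CPM. By CPM, DMSO lay above Nutlin, PD24, N+PD24 and N+PD30 without overlap and overlapped with PD30. With column totals, by which CPM are formed, the median of all genes in Nutlin against DMSO was -0.10, against 0.03 with TMM. In PD30 and in N+PD30 replicate 3 lay well below the other replicates. The log2 fold changes against DMSO were -0.21 in Nutlin (95% interval -0.50 to 0.08, adjusted p = 0.191, edgeR), -0.24 in PD24 (-0.55 to 0.06, adjusted p = 0.179) and -0.26 in PD30 (-0.68 to 0.15, adjusted p = 0.268). All 3 intervals exclude a fall of 2-fold or more. The response of CASP9 to Nutlin differed by 0.31 ± 0.26 in the presence of PD30 (edgeR, adjusted p = 0.444).

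CASP2, the initiator activated on the PIDD platform, was lower in every treated library than in any DMSO library. Its DMSO levels were 61.7, 56.8 and 71.4 CPM. PD24 gave 30.2, 29.8 and 30.4 CPM, PD30 gave 25.7, 21.0 and 24.0 CPM, and Nutlin gave 18.7, 13.2 and 18.6 CPM. The groups were thus ordered DMSO, PD24, PD30 and Nutlin without overlap. N+PD30 gave 16.3, 16.2 and 17.8 CPM, inside the range of Nutlin, and N+PD24 gave the lowest values of all at 12.3, 12.97 and 12.9 CPM.

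Nutlin lowered CASP2 by 1.79 ± 0.15 on the log2 scale, or 3.45-fold (edgeR, adjusted p = 9.27e-06), the largest change of any member with that drug. PD24 lowered it by 1.05 ± 0.11 (adjusted p = 0.000121) and PD30 by 1.44 ± 0.11 (adjusted p = 7.58e-06), and these calls against DMSO held under every alternative tried. The step from PD24 to PD30, -0.39 ± 0.12 (adjusted p = 0.035), was lost without any one of the 6 libraries (adjusted p 0.0502 to 0.132), with column totals (adjusted p = 0.0583) and without the filter on low counts (adjusted p = 0.0530). On top of PD24, Nutlin lowered CASP2 by 1.10 ± 0.13 (limma, adjusted p = 0.000126). On top of PD30 the difference was -0.40 ± 0.12 (edgeR, adjusted p = 0.0519), and it passed with the replicate number as a block (-0.39, adjusted p = 0.0247), by DESeq2 (adjusted p = 0.0216) and with column totals (-0.49, adjusted p = 0.0316). The response to Nutlin was therefore smaller in the presence of PD30, by 1.44 ± 0.19 (interaction, edgeR, adjusted p = 0.000296). With PD24 the corresponding difference was 0.70 ± 0.19 (limma, adjusted p = 0.118). Against Nutlin alone, N+PD30 gave -0.04 (95% interval -0.40 to 0.31, edgeR, adjusted p = 0.836). N+PD24 gave -0.31 (-0.65 to 0.03, limma, adjusted p = 0.139), which passed with the replicate block (adjusted p = 0.0351) and without Nutlin replicate 2 (adjusted p = 0.0431).

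CASP8, the initiator at death receptors, was highest in PD24 and lowest in N+PD30 by group mean. It stood at 24.9, 25.0 and 26.0 CPM in DMSO, at 20.8, 16.2 and 20.9 CPM in Nutlin, and at 31.5, 27.2 and 36.96 CPM in PD24. PD30 gave 26.4, 23.7 and 22.8 CPM, N+PD24 gave 24.1, 22.4 and 22.6 CPM, and N+PD30 gave 18.02, 17.4 and 17.9 CPM. PD24 lay above all other groups without overlap, and Nutlin and N+PD30 overlapped at the low end. The change with Nutlin was -0.27 ± 0.12 on the log2 scale (edgeR, adjusted p = 0.0806), and it passed with column totals (-0.39, adjusted p = 0.0239) and without Nutlin replicate 1 (adjusted p = 0.0440). CASP8 rose by 0.36 ± 0.12 in PD24 (adjusted p = 0.0447), a call that was lost without any one library other than PD24 replicate 2 (adjusted p up to 0.140), with column totals (adjusted p = 0.0721) and without the filter on low counts (adjusted p = 0.0657). It was lower in PD30 than in PD24 by 0.43 (-0.43 ± 0.13, adjusted p = 0.0411), a call that was lost without any one library other than PD24 replicate 2 (adjusted p up to 0.124) and with column totals (adjusted p = 0.0645).

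With both drugs, CASP8 was lower in N+PD30 than in N+PD24 by 0.48 (-0.48 ± 0.13, limma, adjusted p = 0.0181), which was lost without replicate 2 of either group (adjusted p up to 0.0919). In 3 comparisons the call depended on the setting. N+PD30 against PD30 gave -0.36 ± 0.11 (edgeR, adjusted p = 0.0649), which passed with the replicate block (adjusted p = 0.0299), with column totals (adjusted p = 0.0321) and by DESeq2 (adjusted p = 0.0318). N+PD24 against PD24 gave -0.32 ± 0.15 (limma, adjusted p = 0.115, with the block 0.0388, with column totals 0.0293). N+PD24 against Nutlin gave 0.34 ± 0.13 (limma, adjusted p = 0.0765, with the block 0.0103). N+PD30 against Nutlin gave -0.15 (95% interval -0.47 to 0.17, edgeR, adjusted p = 0.407). The differences of the Nutlin response were -0.04 with PD30 (95% interval -0.36 to 0.29) and -0.03 with PD24 (-0.42 to 0.36), so neither schedule came with a detectable difference.

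CASP10, the close relative of CASP8 at death receptors, had the lowest level per kilobase in DMSO and, of the members, the largest rise in Nutlin against DMSO. It stood at 4.67, 4.27 and 4.04 CPM in DMSO and at 11.4, 8.96 and 8.55 CPM in Nutlin. PD24 gave 3.56, 2.95 and 3.41 CPM, and PD30 gave 4.37, 3.39 and 3.72 CPM. With both drugs it stood at 8.65, 9.77 and 7.69 CPM in N+PD24 and at 6.38, 6.69 and 6.92 CPM in N+PD30. All 9 libraries with Nutlin lay above all 9 without it. N+PD24 overlapped with Nutlin alone, and N+PD30 lay below both.

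CASP10 rose with Nutlin by 1.28 ± 0.17 on the log2 scale, or 2.43-fold (edgeR, adjusted p = 0.000141). It rose by 1.53 ± 0.18 in N+PD24 against PD24, or 2.88-fold (limma, adjusted p = 0.000161), and by 0.90 ± 0.15 in N+PD30 against PD30, or 1.86-fold (edgeR, adjusted p = 0.00891). These 3 calls held under every alternative. The differences between the responses were 0.27 ± 0.23 with PD24 (limma, adjusted p = 0.738) and -0.34 ± 0.22 with PD30 (edgeR, adjusted p = 0.300), so a difference in the response was not shown for either schedule. Against Nutlin alone, CASP10 was lower in N+PD30 by 0.57 (-0.57 ± 0.18, edgeR, adjusted p = 0.0196), a call that was lost without Nutlin replicate 1 or N+PD30 replicate 2 (adjusted p up to 0.0766). It was lower in N+PD30 than in N+PD24 by 0.49 (-0.49 ± 0.16, limma, adjusted p = 0.0459), a call that held only without N+PD24 replicate 3 and was lost without each of the other 5 libraries (adjusted p up to 0.184), and it was also lost with column totals (adjusted p = 0.105) and without the filter on low counts (adjusted p = 0.0695). PD0332991 alone gave -0.36 (95% interval -0.73 to 0.00) in PD24 and -0.20 (-0.55 to 0.16) in PD30, and neither was called.

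CASP6, an executioner caspase that cleaves lamins, was highest in DMSO and fell further with the longer schedule of PD0332991. It stood at 21.1, 22.2 and 21.1 CPM in DMSO, at 15.5, 14.4 and 13.3 CPM in Nutlin, and at 11.2, 14.5 and 13.5 CPM in PD24. PD30 gave 7.58, 9.51 and 6.73 CPM, N+PD24 gave 11.03, 9.80 and 8.23 CPM, and N+PD30 gave 8.19, 7.93 and 7.31 CPM. DMSO lay above all other groups, Nutlin overlapped with PD24, and PD30 overlapped with both N+PD30 and N+PD24. CASP6 fell by 0.45 ± 0.12 on the log2 scale with Nutlin (edgeR, adjusted p = 0.00932), by 0.70 ± 0.14 in PD24 (adjusted p = 0.00374) and by 1.45 ± 0.15 in PD30 (adjusted p = 3.94e-05). PD30 was lower than PD24 (-0.75 ± 0.18, adjusted p = 0.0155), a call that was lost without PD30 replicate 1 or 3 (adjusted p up to 0.0571).

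In the presence of Nutlin, CASP6 was lower by 0.93 in N+PD30 (-0.93 ± 0.16, edgeR, adjusted p = 0.000786) and by 0.51 in N+PD24 (-0.51 ± 0.16, limma, adjusted p = 0.0393) than with Nutlin alone. The second of these was lost without Nutlin replicate 1 or 2 or N+PD24 replicate 2 or 3 (adjusted p up to 0.122). On top of PD0332991, Nutlin made no detectable difference: 0.07 with PD30 (95% interval -0.33 to 0.46, edgeR, adjusted p = 0.821) and -0.29 with PD24 (-0.69 to 0.11, limma, adjusted p = 0.232). The response of CASP6 to Nutlin differed by 0.56 ± 0.20 with PD30 (edgeR, adjusted p = 0.0669), which passed without PD30 replicate 2 (adjusted p = 0.0182).

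CASP1, the inflammasome protease that matures interleukins, rose with Nutlin and was otherwise not called. It stood at 13.998, 14.3 and 12.1 CPM in DMSO, at 18.8, 16.3 and 15.7 CPM in Nutlin, and at 16.0, 14.1 and 13.2 CPM in PD24. PD30 gave 14.1, 14.1 and 10.6 CPM, N+PD24 gave 20.2, 17.3 and 14.2 CPM, and N+PD30 gave 15.0, 13.4 and 10.6 CPM. Each group overlapped with its neighbour in the order of means, while Nutlin lay above DMSO without overlap. The rise with Nutlin was 0.46 ± 0.13 on the log2 scale, or 1.37-fold (edgeR, adjusted p = 0.0151), and the call was lost without DMSO replicate 3 (adjusted p = 0.0551) and with column totals (0.33, adjusted p = 0.0551). With PD0332991 alone CASP1 differed from DMSO by 0.12 in PD24 (95% interval -0.19 to 0.43) and by -0.07 in PD30 (-0.41 to 0.26). N+PD24 against PD24 gave 0.39 ± 0.18 (limma, adjusted p = 0.111, with the replicate block 0.0179). N+PD30 against Nutlin gave -0.42 ± 0.18 (edgeR, adjusted p = 0.0731), and it passed without N+PD30 replicate 1 (adjusted p = 0.0307). N+PD30 against N+PD24 gave -0.52 ± 0.20 (limma, adjusted p = 0.0782), and it passed without N+PD24 replicate 3 or N+PD30 replicate 1 (adjusted p down to 0.0441).

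CASP4, the inflammatory caspase that senses bacterial lipopolysaccharide in the cytosol, was the member that rose with PD0332991 under both schedules, with and without Nutlin. It stood at 50.8, 57.3 and 55.0 CPM in DMSO and at 49.3, 56.4 and 49.6 CPM in Nutlin. PD24 gave 88.2, 79.1 and 80.4 CPM, PD30 gave 98.2, 92.1 and 81.2 CPM, N+PD24 gave 96.6, 79.3 and 76.3 CPM, and N+PD30 gave 76.6, 86.6 and 73.5 CPM. All 12 libraries with PD0332991 lay above all 6 without it, and on either side of that gap neighbouring groups overlapped. CASP4 rose by 0.63 ± 0.10 on the log2 scale in PD24 (edgeR, adjusted p = 0.00124) and by 0.72 ± 0.10 in PD30 (adjusted p = 0.000256), or 1.54-fold and 1.65-fold. Against Nutlin alone it was higher by 0.77 ± 0.14 in N+PD24 (limma, adjusted p = 0.00264) and by 0.57 ± 0.13 in N+PD30 (edgeR, adjusted p = 0.00427). These 4 calls held under every alternative. Nutlin itself gave 0.06 (95% interval -0.18 to 0.29, adjusted p = 0.663), which turned to -0.07 with column totals, and the Nutlin response differed by -0.11 ± 0.15 with PD30 (adjusted p = 0.661) and by 0.12 ± 0.17 with PD24 (limma, adjusted p = 0.862).

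**Figure D1:**
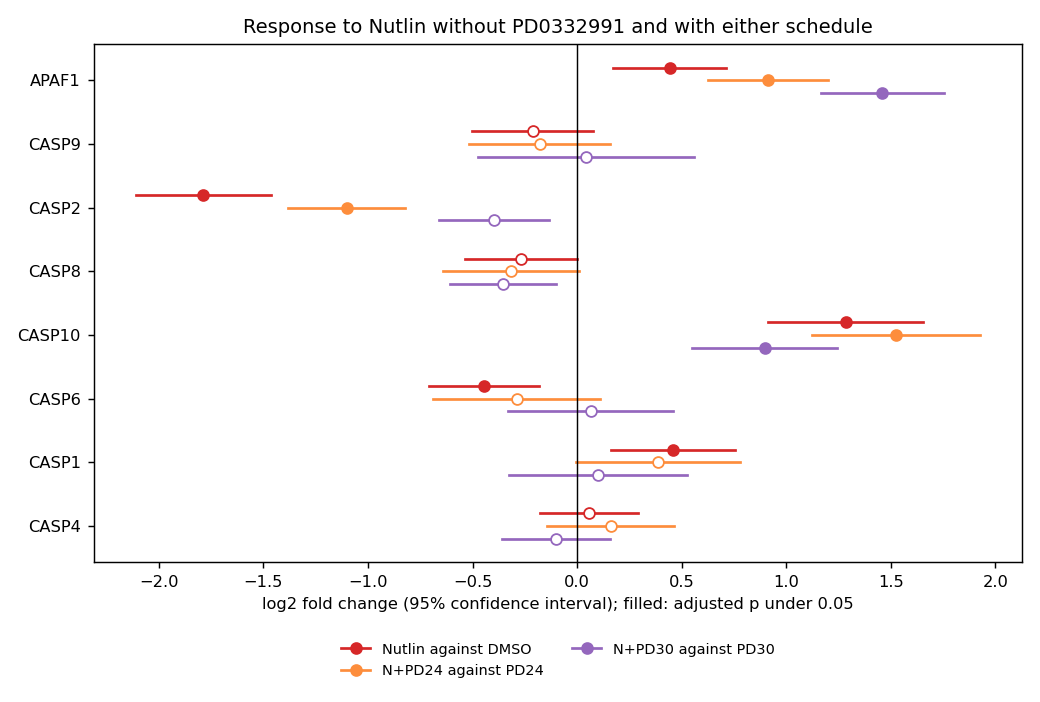
Log2 fold change with Nutlin (horizontal axis) of each gene without PD0332991 (Nutlin against DMSO), with PD24 (N+PD24 against PD24) and with PD30 (N+PD30 against PD30). Points are fitted values, bars are 95% confidence intervals, and filled points passed an adjusted p of 0.05. In that order the values of APAF1 are 0.44, 0.91 and 1.46, and those of CASP2 -1.79, -1.10 and -0.40. Values with PD24 come from limma and the others from edgeR. The difference from the response without PD0332991 was called for both genes with PD30 and for neither with PD24. The responses under PD24 and PD30 were not tested against each other.

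**Figure D2:**
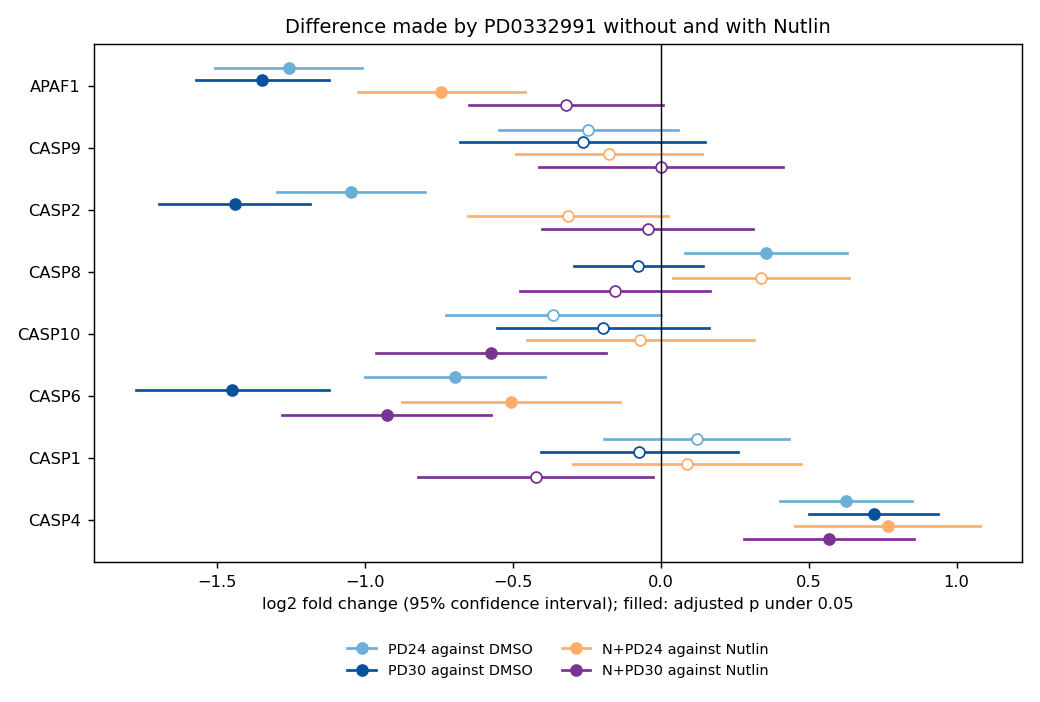
Log2 fold change with PD0332991 (horizontal axis) of each gene, for PD24 and PD30 against DMSO and for N+PD24 and N+PD30 against Nutlin, with 95% confidence intervals. Filled points passed an adjusted p of 0.05. Values for N+PD24 come from limma and the others from edgeR. CASP4 lies to the right of 0 in all 4 comparisons and CASP6 to the left in all 4, while CASP2 moves from -1.05 and -1.44 without Nutlin to -0.31 and -0.04 with it.

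The choice of scaling bears on small values. In Nutlin against DMSO, scaling by column totals in place of TMM moved the median of all genes from 0.03 to -0.10 on the log2 scale and the split of changed genes from 4198 higher and 4416 lower to 3151 and 5439. Relative to that shift the large changes of CASP2 and CASP10 remained, while for the members the calls of APAF1 and CASP1 were lost and CASP8 was called lower. The split also moved in N+PD30 against PD30 (1333 higher and 850 lower, with column totals 1107 and 1421), in N+PD24 against PD24 (2566 and 3079, with column totals 1785 and 4077) and in N+PD30 against N+PD24 (2392 and 2455, with column totals 3070 and 1894). MDM2, which stood at 2589 CPM in DMSO and 22914 CPM in Nutlin, is part of the totals by which CPM are formed. Its part in these shifts was not tested.

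The genes whose pattern over the 18 libraries was closest to each member called in at least 1 comparison, so not CASP9, are given as a description, by Pearson's r of log2(CPM + 0.5) among 13559 genes. The libraries share treatments, so these values carry no test. APAF1 was followed by LOC100294145 (0.96), CCP110 (0.95) and PPM1D (0.95). CASP2 was followed by MSH6 (0.99), C5orf25 (0.98) and SMYD4 (0.98), and CASP10 by ASCC3, TRIM22 and CDH10 (0.97 each). The nearest genes were ASH2L, RBM8A and BLMH for CASP6 (0.97 to 0.96), MUM1L1, C15orf48 and TCEAL4 for CASP4 (0.97 to 0.96), NAT10, ZNF462 and FASTKD2 for CASP8 (0.95 to 0.94), and HSPE1, ANXA2 and TCEB1 for CASP1 (0.91 to 0.89). Among the members themselves, the highest r was that of APAF1 with CASP10 (0.69), and the lowest that of APAF1 with CASP4 (-0.75).

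The wider pathway was described with a list of 50 genes: other caspases, adaptors and platforms, mitochondrial factors, inhibitors and substrates. In Nutlin against DMSO, 12 of 45 tested genes rose and 10 fell, against 26.6% and 28% of all genes. In PD30 against DMSO, 6 of 44 rose and 14 fell, against 22.9% and 25.4%. In N+PD30 against Nutlin, 8 of 45 were higher and 14 lower, against 24.3% and 24.7%. The medians of the list in these comparisons were -0.07, -0.21 and -0.25 on the log2 scale. By role, Nutlin raised 6 of 15 adaptors and platforms and lowered 3, raised 1 of 8 mitochondrial factors and lowered 1, raised 2 of 9 inhibitors and lowered 2, and raised 2 of 10 substrates and lowered 2.

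Of the 4 genes of the list with the largest rises with Nutlin, 3 encode receptors or platforms upstream of members, and the other was CASP5. The role of adaptors and platforms, which includes receptors, held 15 of the 45 tested genes. Nutlin raised 6 of these 15 and lowered 3. PIDD, the scaffold for CASP2, stood at 5.85, 3.85 and 3.43 CPM in DMSO and at 19.2, 34.4 and 35.2 CPM in Nutlin, a rise of 2.88 ± 0.27 on the log2 scale (edgeR, adjusted p = 1.93e-05). CASP2 itself fell in the same libraries. FAS, the death receptor upstream of CASP8 and CASP10, stood at 24.2, 23.5 and 20.7 CPM in DMSO and at 153, 124 and 131 CPM in Nutlin, a rise of 2.71 ± 0.12 (edgeR, adjusted p = 4.13e-07). NLRC4, an inflammasome platform for CASP1, stood at 0.424, 0.555 and 0.937 CPM in DMSO and at 2.13, 2.46 and 3.17 CPM in Nutlin, a rise of 2.13 ± 0.30 (edgeR, adjusted p = 0.000226). CASP5, a neighbour and paralog of CASP4, had 0, 5 and 3 reads in DMSO and 51, 36 and 36 in Nutlin. Its rise of 4.08 (95% interval 2.93 to 5.22, edgeR, adjusted p = 0.000123) depends on how the fit treats such low counts.

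BIRC5, which encodes survivin, an inhibitor of apoptosis that also acts in mitosis, stood at 259, 236 and 257 CPM in DMSO and at 11.2, 10.1 and 6.64 CPM in PD30. It was lower by 4.77 ± 0.18 on the log2 scale (-4.77, edgeR, adjusted p = 4.00e-08), and by 4.71 in N+PD30 against Nutlin (-4.71, adjusted p = 4.48e-08). PARP1, a DNA repair enzyme cleaved by executioner caspases, fell by 1.57 ± 0.08 in PD30 against DMSO (adjusted p = 4.42e-07) and differed by -1.44 ± 0.13 in N+PD30 against Nutlin (adjusted p = 8.62e-06). The platform genes NOD1 (-1.23 ± 0.14, adjusted p = 0.000112) and NLRP3 (-1.14 ± 0.18, adjusted p = 0.000788) were lower in PD30 than in DMSO. In N+PD30 against Nutlin, CASP5 (-2.21 ± 0.39, adjusted p = 0.000908) and AIM2 (-1.47 ± 0.43, adjusted p = 0.0158) were lower. Both were scarce, at means of 1.40 CPM and 0.475 CPM in Nutlin.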

How the data were processed

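The members and the pathway list were chosen with earlier results of these data known. RNA was prepared with a TruSeq RNA kit and read in single reads. The authors mapped reads to hg19 with TopHat and Bowtie2, counted them per gene with HTSeq 0.6.0 and deposited counts for 5 groups, in tables named as variance-stabilized. For N+PD24 they deposited a normalised signal in which every library had been divided by its size factor, and of these values 100% came out as whole reads within 0.01. The authors' own DESeq2 comparison (base means, fold changes, p-values) was not used. CPM were formed by each column's own total, which cancels the size factor.

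Counts were compared with edgeR 4.0.16 (quasi-likelihood, TMM, filterByExpr, 2 groups per fit, or 4 for interactions) in R 4.3.3, and comparisons with N+PD24 with limma 3.58.1 (trend, log2 of value plus a pseudocount of 1). Limma's fold changes understate changes of low genes. Changed means a Benjamini-Hochberg adjusted p under 0.05 over all genes tested. All 8 members passed the filter on low counts in all 11 comparisons. Of the 50 pathway genes, those named were the 4 with the largest absolute log2 fold change over 1 in each of 3 comparisons. Alternatives were DESeq2 1.42.0, its size factors, column totals, no filter, pseudocounts of 0.5 and 8, a replicate block, edgeR on recovered reads, and leaving out each library. Same-numbered samples deviated together (every correlation over 0.1, lowest 0.20 to 0.45) in PD30 against PD24, N+PD30 against PD30, N+PD24 against Nutlin and N+PD24 against PD24. This pairing comes from the data, as the labels give only numbers. The scripts were tested on simulated data. Of the gene rows, 28 carried names turned into dates. Some genes of the pathway and marker lists are not reported here by name.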

Additional observations from a re-analysis of the deposited data

Results flagged for a closer look

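The response to Nutlin differed with PD30 for 2 of 8 members by a test of the difference itself (interaction over 12 libraries, the quasi-likelihood test of edgeR, Benjamini-Hochberg adjusted). Of all 16113 genes tested, 19.8% passed, so the count of members was near the share of all genes. For CASP2 the difference was 1.44 on the log2 scale (adjusted p = 0.000296). The fall with Nutlin was 1.79 without PD30 (fitted -1.79, no overlap between groups). The value in N+PD30 against PD30 was -0.40 (no overlap) and was not called (edgeR, adjusted p = 0.0519). For APAF1 the difference was 1.07 (adjusted p = 0.00128), with a rise of 0.44 without PD30, where the groups overlapped, and of 1.46 on top of PD30, where they did not.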

How the results depend on the processing

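Of 1128 member values under the alternatives, 1020 kept their direction and their side of the threshold, 47 were no longer called, 23 were newly called and 38 turned direction. The cause was not tested. The count of changed members moved by over 1.5 times in these comparisons. In PD30 against PD24 it was 3, with column totals 1 and with 1 library left out 0 to 2. Over all genes, 3816 of 15171 changed, with column totals 3788 and with 1 library left out 2178 to 4117. In N+PD30 against PD30 the count of members was 2, and 4 with column totals, with the replicate block and by DESeq2. Over all genes, 2183 of 15077 changed, 2528 with column totals, 4375 with the block and 2930 of 20240 by DESeq2. In N+PD24 against Nutlin and in N+PD24 against PD24 the count of members was 3, and 5 with the replicate block. Over all genes the block moved the count from 5399 to 8357 of 15948 and from 5645 to 8020 of 15550. In N+PD30 against N+PD24 the count of members was 3, and 0 to 3 with 1 library left out. Over all genes, 4847 of 15533 changed, and 3126 to 4936 with 1 library left out. The fits without PD30 replicate 1 or 3 gave the 0 in PD30 against PD24, and those without replicate 2 of either group gave the 0 in N+PD30 against N+PD24. By edgeR on recovered reads the 3 comparisons with N+PD24 gave 3 members each. Over all genes they gave 5483 of 15927 (N+PD24 against Nutlin), 5713 of 15517 (N+PD24 against PD24) and 4959 of 15406 (N+PD30 against N+PD24).

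Where the numbers did not pair the samples, the replicate block newly called CASP1 in N+PD30 against Nutlin (-0.43, adjusted p = 0.0457) and in N+PD30 against N+PD24 (-0.52, adjusted p = 0.0207). The block also newly called CASP6 in the interaction with PD30 (0.57, adjusted p = 0.0283), and pairing was not checked for interactions. Blocking changed no member's call beyond these and those given above.

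Values that turned direction were not called under any setting. With column totals CASP4 stood at -0.070 in Nutlin against DMSO, CASP9 at 0.019 in PD30 against PD24 and at -0.053 in N+PD30 against PD30, and CASP6 at -0.026 in N+PD30 against PD30. CASP9 in N+PD30 against Nutlin stood at -0.00054 with DESeq2's size factors and at -0.011 with the block. With 1 library left out, CASP9 spanned -0.15 to 0.18 in PD30 against PD24, -0.10 to 0.16 in N+PD30 against Nutlin, -0.13 to 0.21 in N+PD30 against PD30 and -0.0068 to 0.099 in the interaction with PD24. CASP1 spanned -0.15 to 0.063 in PD30 against DMSO, -0.011 to 0.25 in N+PD30 against PD30, -0.087 to 0.25 in N+PD24 against Nutlin and -0.21 to 0.091 in the interaction with PD24. CASP4 spanned -0.023 to 0.10 in Nutlin against DMSO and -0.012 to 0.20 in the interaction with PD24. CASP2 spanned -0.18 to 0.049 in N+PD30 against Nutlin, CASP6 -0.026 to 0.23 in N+PD30 against PD30, and CASP10 -0.17 to 0.055 in N+PD24 against Nutlin. CASP8 spanned -0.15 to 0.022 in the interaction with PD30 and -0.14 to 0.074 in that with PD24.

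Over all genes, the replicate block moved the number changed from 3816 to 6107 in PD30 against PD24, from 2183 to 4375 in N+PD30 against PD30, from 5399 to 8357 in N+PD24 against Nutlin and from 114 to 287 in the interaction with PD24. That last count was 74 without a filter and 202 with a pseudocount of 8. Leaving out 1 library gave 583 (without PD30 replicate 1) to 3384 (without N+PD30 replicate 3) in N+PD30 against PD30. It lowered the count to 34 (without DMSO replicate 2) in the interaction with PD24, to 2178 (without PD30 replicate 1) in PD30 against PD24, from 5645 to 3759 (without N+PD24 replicate 2) in N+PD24 against PD24 and from 4847 to 3126 (without N+PD24 replicate 2) in N+PD30 against N+PD24. In the pathway list the block moved the number changed from 7 to 23, from 8 to 14 and from 15 to 30 in the first 3 of these comparisons, and DESeq2 gave 13 in N+PD30 against PD30. With 3 replicates per group, and 70 reads behind the lowest member value, small differences of CASP9 and CASP10 were not resolved.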
